A study of Mus musculus with 32 samples.

Results

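The genes described here are 9 genes of coagulation and fibrinolysis, the making and the dissolving of blood clots. F3, F10 and F2r are on the clotting side, and Tfpi and Thbd on the anticoagulant side. Plat, Plau and Plaur are on the fibrinolytic side, and the product of Vwf tethers platelets to the vessel wall. The 9 genes were taken by gene symbol from 19505 genes with a named probe, and each has 1 probe. No filter on low values was applied, so all 9 are followed throughout. RNA of the cerebrum or the spinal cord was measured on 32 microarrays, all from male wild-type C57BL/6J mice of 6 to 12 weeks and 20 to 25 g, in 8 groups of 4 arrays. Each tissue had a control group and groups taken 1, 3 and 7 days after photothrombosis, in which illumination of a circulating dye clots the vessels under the light. All 8 groups share strain and sex, the labels do not say whether controls underwent surgery or light, and no transgene or drug is named.

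Coagulation begins when blood meets tissue factor, the product of F3, which binds factor VIIa on cell surfaces and activates factor X. Factor Xa makes thrombin, and thrombin cuts fibrinogen to fibrin and signals to cells through receptors such as the product of F2r. Fibrin is dissolved by plasmin, which the activators encoded by Plat and Plau release from plasminogen. In brain and cord these genes are known from endothelial cells, astrocytes, microglia and infiltrating cells, so whole tissue reports on all of them at once.

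Sequence from 250 bases upstream of the start site was available from RefSeq on GRCm38.p6 for 5 of the 9 genes, in 6 windows (Tfpi has 2). No window was available for Thbd, Plat, Plau and Vwf. At spinal day 1, 7 of the 9 genes rose, and again 7 at spinal day 7, and the part of the sequence in these rises was not tested. The windows were searched on both strands for TGANTCA, the site letters of the AP-1 transcription factors. The first 250 bases before the F3 start follow, at chr3:121723287-121723536 on the plus strand, with AP-1 letters in capitals. The 2 other stretches are 30 bases around a match, for Plaur at chr7:24462403-24462432 on the plus strand and for F2r at chr13:95618652-95618681 on the minus strand.
F3: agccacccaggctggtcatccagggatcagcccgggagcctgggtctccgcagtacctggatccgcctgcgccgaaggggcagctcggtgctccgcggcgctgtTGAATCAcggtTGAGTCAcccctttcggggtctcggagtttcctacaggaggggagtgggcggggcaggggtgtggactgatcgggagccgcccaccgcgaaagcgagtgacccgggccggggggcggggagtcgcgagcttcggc
Plaur: acccctggagcTGACTCActctttagcaaa
F2r: ccccgaggggcTGAGTCActcccaggcttg

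F3 holds 2 matches, whose first bases lie 146 and 135 bases upstream of its start. Plaur holds 1 match 69 bases upstream of a RefSeq start inside the gene's annotated span, and F2r holds 1 match 204 bases upstream. The windows of Tfpi and F10 hold none. Of 32851 mouse windows of this length, 2217 (6.75%) hold the letters. GCGNGGGCG, the EGR site letters, occurs in the Plaur window and in none of the others, against 4.7% of all windows. GGGCGG, the Sp1 site letters, occurs in every window but that of F10, against 32.7% of all windows. A match describes the sequence and is not a measured binding site. Among the genes that hold AP-1 letters, F3 and Plaur rose after spinal injury while F2r passed no test after injury. Of the genes whose windows hold none, Tfpi rose at spinal days 1, 3 and 7 and F10 at spinal day 1.

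Values are log2, and 0 is each gene's own median over the 16 control and day 1 arrays, so levels of different genes cannot be compared. To judge from the values alone, arrays of day 3 and day 7 were centred apart from the others by the authors. Values of these days are given after this offset was rebuilt. Changes are differences between group means ± SE from 1 limma fit over all genes, with Benjamini-Hochberg adjusted p under 0.05 taken as passed. Day 3 and day 7 against control had to pass a bound for the uncertainty of the offset, which for these genes was 0.162 to 0.304 at day 3 and 0.178 to 0.476 at day 7. The labels do not say that each array is a separate animal, so the p-values cover the spread between these arrays, which may be technical. The numbers in the sample titles run in a separate range for each group. The titles of spinal day 7 begin with P and those of all other groups with G. A batch that followed these titles could not be told apart from a group.

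The tissue labels held: 6 of 6 measured forebrain genes were lower and 5 of 6 measured Hox genes were higher in control cord than in control cerebrum. The SD of an array over all genes was 0.297 to 0.428 in the cerebrum, 0.416 to 0.511 in control cord and 0.788 to 0.908 in cord at day 7. Spinal day 3 array 1 had the lowest array weight, 0.225. All 10 skeletal muscle markers were higher in control cord than in control cerebrum, and their mean in the 4 spinal controls was 4.07, 3.47, 1.36 and 0.24 against -0.09 to 0.37 at spinal day 1. In the cerebrum the mean of 7 hypothalamus and pituitary markers was 0.75 to 1.75 in controls. It was -0.05 to 0.48 at day 1, 0.27 to 0.60 at day 3 and 0.57 to 2.26 at day 7. The forebrain mean was 1.53 to 2.17 in cerebral controls and 1.36 to 1.51, 0.91 to 1.30 and 1.11 to 1.25 at these days. The part of the tissue taken in the changes was not tested.

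In the injured spinal cord most of the 9 genes were higher than in control cord, and in the injured cerebrum 1 gene passed at each time. At spinal day 1, 7 genes rose, against 15.8% of all genes that rose and 16.1% that fell. At spinal day 3, 6 rose, against 10.3% of all genes that rose and 9.64% that fell. At spinal day 7, 7 rose, against 15.2% of all genes that rose and 16.6% that fell. None of the 9 fell in any comparison. The median change of the 9 was 0.92 at spinal day 1, 0.98 at day 3 and 1.39 at day 7, against 0.02, -0.08 and -0.10 over all genes. With spinal controls 3 and 4 only, the 2 with the lowest muscle mean, all of these rises passed again except that of F10 at day 1. Without spinal day 3 array 1 the 6 genes passed again at day 3, from Plau at 0.79 (adjusted p = 0.0401) to Plaur at 2.07 (adjusted p = 5.09e-05).

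In the cerebrum 1 of the 9 rose at day 1 (8.91% of all genes rose and 8.22% fell), 1 at day 3 (3.49% and 2.85%) and 1 at day 7 (4.5% and 2.09%). The gene was Vwf at day 1 and day 3 and Plau at day 7. These counts rest on 1 estimate of spread per gene shared by all 8 groups, cord included. In a fit of only the groups compared, F3, Plau and Plaur also passed at day 1, Plau at day 3 and Plaur at day 7. Over all genes 2246, 916 and 1175 rose in that fit, against 1737, 680 and 877 in the fit of all groups. The median change of the 9 was 0.28, 0.22 and 0.24, against -0.01, -0.03 and -0.05 over all genes. The 3 times in a tissue share their 4 controls, so their changes are not independent.

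**Figure D1:**
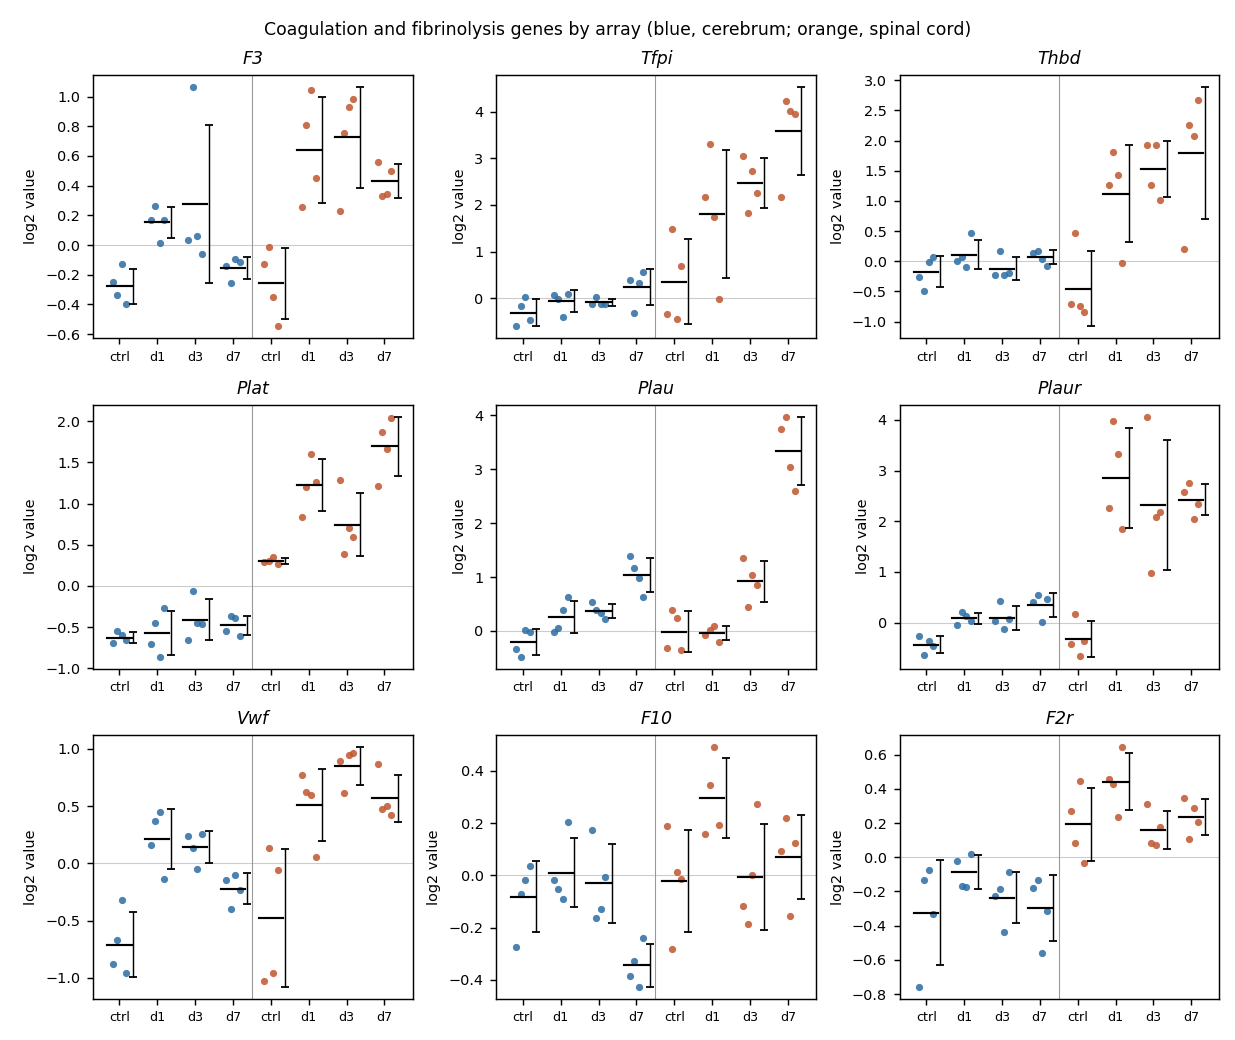
Log2 value of each of the 9 genes on each of the 32 arrays, by group (ctrl, control; d1, d3 and d7, days after injury), with the group mean as a bar and ± 1 SD beside it (n = 4). The injured spinal arrays of Plaur and the spinal day 7 arrays of Plau lie above every cerebral array, those of Tfpi and Thbd do so except for array 4 of day 1 and, for Thbd, array 1 of day 7, and F10 and F2r stay within a narrow range.

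F3, at chr3:121723537-121735052, encodes tissue factor, the trigger of clotting. Its spinal control values were -0.13, -0.01, -0.35 and -0.55. The day 1 values were 0.25, 0.81, 1.05 and 0.45, those of day 3 were 0.23, 0.75, 0.93 and 0.98, and those of day 7 were 0.56, 0.33, 0.34 and 0.50. Every injured array of the cord lay above every control array. F3 rose by 0.90 ± 0.18 at day 1 (1.86-fold, adjusted p = 0.0004), by 0.98 ± 0.18 at day 3 (1.98-fold, adjusted p = 0.000746) and by 0.69 ± 0.18 at day 7 (1.62-fold, adjusted p = 0.0168). The call at day 7 was lost without spinal control 4 (0.60, adjusted p = 0.0677) and under quantile normalisation (0.61, adjusted p = 0.109).

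Cerebral controls held F3 at -0.25, -0.34, -0.13 and -0.40. The 4 arrays of cerebral day 1, at 0.17, 0.26, 0.01 and 0.17, all lay above them, yet the change of 0.43 ± 0.18 did not pass (adjusted p = 0.11). It passed with array weights (adjusted p = 0.0384) and in a fit of these groups alone (adjusted p = 0.00777). At cerebral day 3 the values were 0.03, 1.07, 0.06 and -0.06, so 1 array stood far above the other 3 and the change of 0.55 ± 0.18 did not pass (adjusted p = 0.191). By day 7 the cerebral values, -0.14, -0.26, -0.09 and -0.11, overlapped the controls.

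Tfpi, at chr2:84432855-84476775, encodes tissue factor pathway inhibitor, which blocks factor Xa and the complex of tissue factor with factor VIIa. Its 4 spinal controls were uneven, at -0.34, 1.49, -0.44 and 0.69. The day 1 values were 2.17, 3.31, 1.74 and -0.02, and the last of these lay among the controls. At day 3 the values were 3.05, 1.83, 2.74 and 2.25, and at day 7 they were 2.18, 4.23, 4.02 and 3.95. From day 3 on no injured array overlapped the controls.

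The rise of Tfpi in the cord was 1.45 ± 0.46 at day 1 (2.74-fold, adjusted p = 0.0156), 2.12 ± 0.46 at day 3 (4.34-fold, adjusted p = 0.00123) and 3.25 ± 0.46 at day 7 (9.48-fold, adjusted p = 5.51e-06). The day 1 call did not hold without spinal control 1 (1.22, adjusted p = 0.0588), spinal control 3 (1.19, adjusted p = 0.0695) or spinal day 1 array 2 (0.95, adjusted p = 0.111), nor in a fit of these groups alone (adjusted p = 0.0993). Quantile normalisation gave 1.40 at day 3 and 1.59 at day 7, both still passed. In the cerebrum Tfpi spanned -0.61 to 0.02 in controls and -0.40 to 0.57 over all injured arrays, and its changes of 0.25, 0.22 and 0.55 did not pass.

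F10, at chr8:13037308-13056676, encodes factor X, the proenzyme that tissue factor and factor VIIa activate. Spinal controls were 0.19, -0.28, 0.01 and -0.01, and spinal day 1 values were 0.16, 0.34, 0.49 and 0.19. The groups overlapped by 1 control array, and the change of 0.32 ± 0.11 (1.25-fold) passed with an adjusted p of 0.0321. This call was not stable. It was lost without spinal control 2 (0.23, adjusted p = 0.14), spinal control 4 (0.32, adjusted p = 0.0529), day 1 array 2 (0.30, adjusted p = 0.0715) or day 1 array 3 (0.25, adjusted p = 0.121), with 75th percentile scaling (adjusted p = 0.0512), with spinal controls 3 and 4 only (adjusted p = 0.105) and in a fit of these groups alone (adjusted p = 0.0894).

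Later spinal changes of F10 were 0.02 ± 0.11 and 0.09 ± 0.11. Its lowest group was cerebral day 7, at -0.39, -0.33, -0.43 and -0.24, against cerebral controls of -0.27, -0.07, -0.02 and 0.04. That change, -0.26 ± 0.11, did not pass (adjusted p = 0.778).

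F2r, at chr13:95601780-95618466, encodes the protease-activated receptor that thrombin cleaves. It differed between the uninjured tissues, with spinal controls at 0.27, 0.08, 0.45 and -0.03 and cerebral controls at -0.76, -0.13, -0.07 and -0.33. Every spinal control lay above every cerebral control, and the difference was 0.52 ± 0.13 (1.43-fold, adjusted p = 0.00172). After injury no change passed in either tissue: the 6 changes from control ran from -0.03 ± 0.13 at spinal day 3 to 0.25 ± 0.13 at spinal day 1 (adjusted p = 0.138). The interval of the spinal day 1 change was -0.01 to 0.51 (95%).

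Thbd, at chr2:148404471-148408188, encodes thrombomodulin, the endothelial receptor that turns thrombin into an activator of protein C. Spinal controls were -0.71, 0.48, -0.74 and -0.84, with control 2 well above the other 3. Spinal day 1 values were 1.26, 1.81, 1.44 and -0.03, day 3 values 1.92, 1.26, 1.92 and 1.02, and day 7 values 0.20, 2.26, 2.07 and 2.67. At day 3 the injured arrays lay above all controls, and at day 1 and day 7 they did so except for 1 array each, which lay below control 2 only.

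Thbd rose by 1.57 ± 0.36 at spinal day 1 (2.98-fold, adjusted p = 0.00128), by 1.99 ± 0.36 at day 3 (3.96-fold, adjusted p = 0.0002) and by 2.25 ± 0.36 at day 7 (4.77-fold, adjusted p = 1.29e-05). Under quantile normalisation the day 7 change was 1.47 and still passed. In the cerebrum the controls ran from -0.49 to 0.07 and the 12 injured arrays from -0.23 to 0.46. The cerebral changes of 0.28, 0.05 and 0.24 did not pass.

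The fibroblast markers, a list of 7 measured genes including Col1a1, Col3a1 and Dcn, were also higher in the injured cord. The mean of that list in the 4 spinal controls was -0.82, 1.59, -0.87 and 0.47, with control 2 highest, as for Tfpi and Thbd, while control 4 was next for the list and Tfpi but the lowest for Thbd. At spinal day 1 it was 1.52, 1.35, 0.94 and -0.06, with array 4 lowest, as for both genes, and array 1 highest, where both genes were highest on array 2. It was 1.70 to 2.74 at day 3 and 3.61 to 4.31 at day 7, where array 1 was the lowest for the list and for both genes. Of the 7 markers 2, 5 and 6 rose at spinal days 1, 3 and 7, and 1, 1 and 4 rose in the cerebrum. The part of fibroblasts in the change of Tfpi and Thbd was not tested. In whole tissue, more cells of a type and more RNA per cell cannot be told apart.

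Plat, at chr8:22757722-22782848, encodes tissue plasminogen activator, which acts on fibrin-bound plasminogen and is also made by neurons and glia. Its 2 control groups did not overlap. Spinal controls were 0.29, 0.30, 0.35 and 0.26 and cerebral controls -0.69, -0.55, -0.60 and -0.66. The difference was 0.93 ± 0.17 (1.90-fold, adjusted p = 5.34e-05). With F2r, Plat made 2 of 9 genes that were higher in control cord, against 17.2% of all genes that were higher and 17.6% that were lower there.

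One day after spinal injury Plat was 0.84, 1.19, 1.60 and 1.27. Its day 3 values were 1.28, 0.39, 0.70 and 0.59, and its day 7 values were 1.21, 1.87, 1.67 and 2.04. No injured array reached down to the controls, but at day 3 this depended on the rebuilt offset. The lowest day 3 array lay above the controls by less than the bound of 0.162. In the values as deposited, before the offset was rebuilt, it was 0.29 and lay within the controls. The rise was 0.92 ± 0.17 at day 1 (1.89-fold, adjusted p = 0.000128) and 1.39 ± 0.17 at day 7 (2.63-fold, adjusted p = 3.8e-07). At day 3 the change of 0.44 ± 0.17 did not pass (adjusted p = 0.194), and without spinal day 3 array 1 it was 0.26. Quantile normalisation ended the day 7 call (0.56, adjusted p = 0.103). Cerebral values of Plat ran from -0.86 to -0.06 over the 12 injured arrays, around the controls, and its changes of 0.06, 0.22 and 0.15 did not pass.

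Plau, at chr14:20836662-20843388, encodes urokinase, the plasminogen activator that works on cell surfaces and in tissue. In the cord it was higher at day 7 than at day 1, and in the cerebrum that comparison did not pass. Spinal controls were -0.32, 0.39, 0.24 and -0.35, and the day 1 values of -0.08, 0.02, 0.10 and -0.21 lay within them. At day 3 the values were 1.36, 0.44, 1.04 and 0.84, just above the controls. The lowest of these was 0.15 in the values as deposited, within the controls. At day 7 the values were 3.76, 3.97, 3.04 and 2.59. The spinal changes were -0.03 ± 0.23 at day 1 (adjusted p = 0.932), 0.93 ± 0.23 at day 3 (1.91-fold, adjusted p = 0.00784) and 3.35 ± 0.23 at day 7 (10.2-fold, adjusted p = 4.24e-13).

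Quantile normalisation ended the day 3 call of Plau in the cord (0.70, adjusted p = 0.0697) and lowered the day 7 change to 1.76, which still passed. In the cerebrum Plau was -0.34, -0.48, 0.01 and -0.01 in controls. Its day 1 values were -0.01, 0.06, 0.39 and 0.63, its day 3 values 0.54, 0.39, 0.34 and 0.22, and its day 7 values 1.38, 1.17, 0.98 and 0.62. The day 3 and day 7 arrays lay above every control. The change was 0.47 ± 0.23 at day 1 (adjusted p = 0.161), 0.58 ± 0.23 at day 3 (adjusted p = 0.29) and 1.24 ± 0.23 at day 7 (2.37-fold, adjusted p = 0.0012). In the values as deposited, before the offset was rebuilt, the day 7 change was 0.74 (adjusted p = 0.0302). Quantile normalisation and a fit of the groups alone brought the day 1 and day 3 changes past the threshold (adjusted p = 0.0182 to 0.0354).

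Monocyte and macrophage markers were higher at the times when Plau had risen, and also at spinal day 1 and cerebral days 1 and 3, when Plau did not pass. Of 11 measured, 5, 10 and 10 rose at spinal days 1, 3 and 7 and 6, 6 and 7 rose in the cerebrum. Their mean on an array was -0.50 to 0.23 in spinal controls, 0.35 to 0.68 at day 1, 1.51 to 3.00 at day 3 and 2.95 to 3.55 at day 7. In the cerebrum it was -0.68 to -0.45 in controls, 0.54 to 0.80 at day 1, 0.83 to 1.04 at day 3 and 1.11 to 1.59 at day 7. Of 9 neutrophil markers, 5, 2 and 8 rose in the cord, and 1 rose in the cerebrum, at day 7. The part of these cells in the change of Plau and Plaur was not tested.

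Plaur, at chr7:24460937-24475970, encodes the receptor that holds urokinase at the cell surface. Its spinal controls were -0.42, 0.17, -0.66 and -0.36. At day 1 the values were 2.26, 3.98, 3.33 and 1.84, at day 3 they were 4.06, 0.98, 2.08 and 2.18, and at day 7 they were 2.57, 2.75, 2.05 and 2.34. All 12 injured arrays lay above all controls, and the spread was widest at day 3. Plaur thus was high on the first day, when Plau was within its control range.

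The rise of Plaur in the cord was 3.17 ± 0.39 at day 1 (9.03-fold, adjusted p = 2.99e-07), 2.65 ± 0.39 at day 3 (6.26-fold, adjusted p = 1.61e-05) and 2.75 ± 0.39 at day 7 (6.71-fold, adjusted p = 1.19e-06). Under quantile normalisation the day 7 change was 1.60 and still passed. Cerebral controls were -0.27, -0.64, -0.36 and -0.45. Cerebral day 1 values were -0.04, 0.21, 0.14 and 0.04, day 3 values 0.03, 0.43, -0.13 and 0.07, and day 7 values 0.40, 0.55, 0.01 and 0.47. Each injured array lay above every control, but the lowest of day 3 did so by less than the bound for the offset, 0.304. The changes of 0.52, 0.53 and 0.79 (SE 0.39) did not pass, with adjusted p of 0.394, 0.877 and 0.402. In a fit of the groups alone day 1 and day 7 passed (adjusted p = 0.00316 and 0.00282).

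Vwf, at chr6:125552948-125686679, encodes von Willebrand factor, the carrier of factor VIII that endothelial cells store and that captures platelets. It was the one gene of the 9 to pass at day 1 and day 3 in both tissues. Cerebral controls were -0.88, -0.67, -0.32 and -0.96, day 1 values 0.16, 0.37, 0.45 and -0.14, and day 3 values 0.24, 0.13, -0.05 and 0.26. All 8 arrays lay above the controls. By day 7 the values were -0.14, -0.40, -0.10 and -0.23, and 1 of them fell among the controls.

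The cerebral change of Vwf was 0.92 ± 0.20 at day 1 (1.89-fold, adjusted p = 0.00142), 0.85 ± 0.20 at day 3 (1.81-fold, adjusted p = 0.0172) and 0.49 ± 0.20 at day 7 (adjusted p = 0.583). The day 3 call was lost without cerebral control 1 (0.80, adjusted p = 0.0541), control 4 (0.77, adjusted p = 0.0696) or day 3 array 4 (0.82, adjusted p = 0.0533). In the values as deposited, day 7 passed as well (0.68, adjusted p = 0.0213).

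Spinal controls of Vwf were -1.02, 0.13, -0.96 and -0.05, again with controls 2 and 4 above 1 and 3. Spinal day 1 values were 0.77, 0.62, 0.60 and 0.05, day 3 values 0.89, 0.61, 0.95 and 0.96, and day 7 values 0.87, 0.48, 0.50 and 0.43. Day 1 overlapped the controls by 1 array and the later days not at all. The rise was 0.99 ± 0.20 at day 1 (1.98-fold, adjusted p = 0.000286), 1.33 ± 0.20 at day 3 (2.51-fold, adjusted p = 2.32e-05) and 1.04 ± 0.20 at day 7 (2.06-fold, adjusted p = 0.00107).

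Of 11 endothelial markers, 4, 3 and 1 rose and 0 fell at cerebral days 1, 3 and 7. In the cord 6, 5 and 4 rose and 3, 1 and 1 fell, from Cdh5 at 1.51, 2.06 and 2.52 to Slco1a4 at -1.65, -0.98 and -1.30. The mean of the list on an array was -0.43 to -0.34 in cerebral controls. It was 0.05 to 0.17, -0.08 to 0.07 and -0.18 to -0.06 at cerebral days 1, 3 and 7. In spinal controls the list mean was 0.08 to 0.35, and at spinal day 1 it was 0.24 to 0.53, which overlapped them. It was 0.71 to 0.94 at spinal day 3 and 0.57 to 0.65 at spinal day 7. The part of endothelial cells in the change of Vwf and Thbd was not tested.

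**Figure D2:**
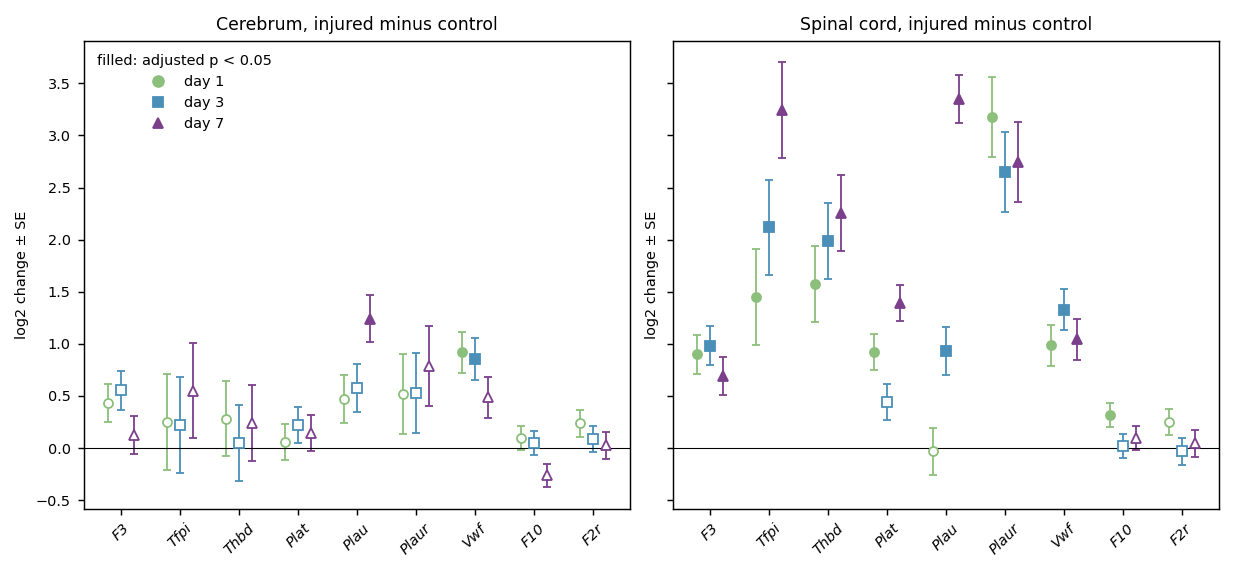
Change from control (log2, mean difference ± SE, n = 4 against 4) of the 9 genes at day 1, 3 and 7, in the cerebrum (left) and the spinal cord (right). Filled symbols passed (adjusted p under 0.05). In the cord Plaur is highest at day 1 at 3.17, while Plau goes from -0.03 at day 1 to 3.35 at day 7.

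With the 8 group means of each gene put in order, few neighbours differed. For Tfpi 1 of 7 neighbouring pairs differed, spinal day 1 above spinal control, so that the 3 injured cord groups formed the top. For Thbd the pair was spinal day 1 above cerebral day 1 (adjusted p = 0.0294), and for Plaur spinal day 3 above cerebral day 7 (adjusted p = 0.00282). Plat parted at spinal control above cerebral day 3 (adjusted p = 0.0104), with all 4 spinal groups on top. Plau parted at spinal day 7 above cerebral day 7 (adjusted p = 5.26e-10). For F3, Vwf, F10 and F2r no neighbours differed, with F3 and Vwf highest at spinal day 3 and lowest in cerebral controls.

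Within a tissue, day 7 was also set against day 1. In the cord 2 of the 9 were higher at day 7, against 13.9% of all genes higher and 13.7% lower. Plau was higher by 3.38 ± 0.23 (10.4-fold, adjusted p = 6.51e-13) and Tfpi by 1.79 ± 0.46 (3.46-fold, adjusted p = 0.0172). Tfpi did not hold without spinal day 1 array 4 (1.19, adjusted p = 0.147), day 7 array 2 (1.58, adjusted p = 0.0652) or day 7 array 3 (1.65, adjusted p = 0.0505), nor in a fit of these groups alone (adjusted p = 0.0796). Under quantile normalisation Plau was 1.81 and still passed, Tfpi was 0.41 and Plaur -1.41, the latter past the threshold (adjusted p = 0.000428) where the values as given put it at -0.43 (adjusted p = 0.559). Thbd at 0.68 and Plat at 0.47 did not pass. Without spinal day 7 array 1, Thbd (1.21, adjusted p = 0.00593) and Plat (0.63, adjusted p = 0.0278) passed too. Under quantile normalisation both turned direction without passing, to -0.13 for Thbd and -0.43 for Plat.

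In the cerebrum limma called 0 of the 9 between day 7 and day 1, against 1.55% of all genes higher and 1.32% lower. At an unadjusted p under 0.05 there was 1. Plau had the largest difference, 0.77 ± 0.23 (adjusted p = 0.138). With the offset taken as exact, 2 passed, Plau (adjusted p = 0.0195) and F10 (-0.36, adjusted p = 0.0326).

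The response to injury was then compared between the tissues, as the spinal change from control minus the cerebral one. In this difference the offset between separately centred arrays drops out. At day 1, 2 of the 9 differed upwards, against 4.7% of all genes upwards and 6.58% downwards. At day 3 it was 2, against 4.08% and 5.19%, and at day 7 it was 5, against 13% and 14.6%. The median difference of the 9 was 0.47, 0.43 and 1.25, against 0.03, -0.01 and -0.01 over all genes.

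Plaur differed at each time, by 2.65 ± 0.55 at day 1 (adjusted p = 0.00177), 2.12 ± 0.55 at day 3 (adjusted p = 0.0119; 1.54 without spinal day 3 array 1) and 1.96 ± 0.55 at day 7 (adjusted p = 0.00681). In this fit the RNA of the urokinase receptor thus rose more in the cord than in the cerebrum on all 3 days. The day 7 difference of Plaur did not pass under quantile normalisation (0.71, adjusted p = 0.171). Its day 3 difference did not pass with cerebral controls 1 and 2 only (adjusted p = 0.0538). Plat differed at day 1 by 0.86 ± 0.24 (adjusted p = 0.0186) and at day 7 by 1.25 ± 0.24 (adjusted p = 0.000205). Its day 1 difference did not hold without spinal day 1 array 3 (0.74, adjusted p = 0.0518).

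Thbd differed at day 3 by 1.94 ± 0.51 (adjusted p = 0.0142) and at day 7 by 2.02 ± 0.51 (adjusted p = 0.00327). At day 1 its difference was 1.29 ± 0.51 (adjusted p = 0.0981), which passed without spinal control 2 (1.60, adjusted p = 0.0362) or spinal day 1 array 4 (1.67, adjusted p = 0.0212). Tfpi differed at day 7 by 2.69 ± 0.65 (adjusted p = 0.00198). Its differences of 1.21 ± 0.65 at day 1 (adjusted p = 0.225) and 1.90 ± 0.65 at day 3 (adjusted p = 0.0615) did not pass. Without spinal day 1 array 4 the first became 1.81 (adjusted p = 0.0314), and without spinal control 2 or spinal day 3 array 2 the second became 2.28 (adjusted p = 0.0176) or 2.11 (adjusted p = 0.0355). With cerebral controls 1 and 2 only, the day 3 differences of Thbd (1.73, adjusted p = 0.0884) and Plaur (2.09, adjusted p = 0.0538) and the day 1 difference of Plat (0.87, adjusted p = 0.0635) did not pass.

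Plau differed at day 7 by 2.11 ± 0.32 (adjusted p = 8.91e-06), where both tissues had risen, and at day 1 its difference was -0.50 ± 0.32 (adjusted p = 0.316). For F3 and Vwf no difference passed. The 95% interval of the Vwf difference was -0.50 to 0.63 at day 1, -0.09 to 1.04 at day 3 and -0.01 to 1.12 at day 7, and that of F3 was -0.07 to 1.00, -0.10 to 0.96 and 0.03 to 1.10. F3 at day 3 passed without cerebral day 3 array 2 (0.69, adjusted p = 0.0371), F3 at day 7 passed with array weights (adjusted p = 0.049) and in a fit of the groups alone (adjusted p = 0.0106), and Vwf at day 7 passed without spinal control 2 (0.76, adjusted p = 0.0283).

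None of the 5 differences at day 7 passed under quantile normalisation, which gives each array the same distribution of values. It left Tfpi at 0.95 (adjusted p = 0.257), Thbd at 1.19 (adjusted p = 0.0504), Plat at 0.46 (adjusted p = 0.252), Plau at 0.20 (adjusted p = 0.717) and Plaur at 0.71 (adjusted p = 0.171). The day 3 difference of Plaur became 1.33 (adjusted p = 0.0137). The spinal day 7 arrays had the widest spread over genes, and their titles form a series of their own. The part of either in these lost calls was not tested.

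**Figure D3:**
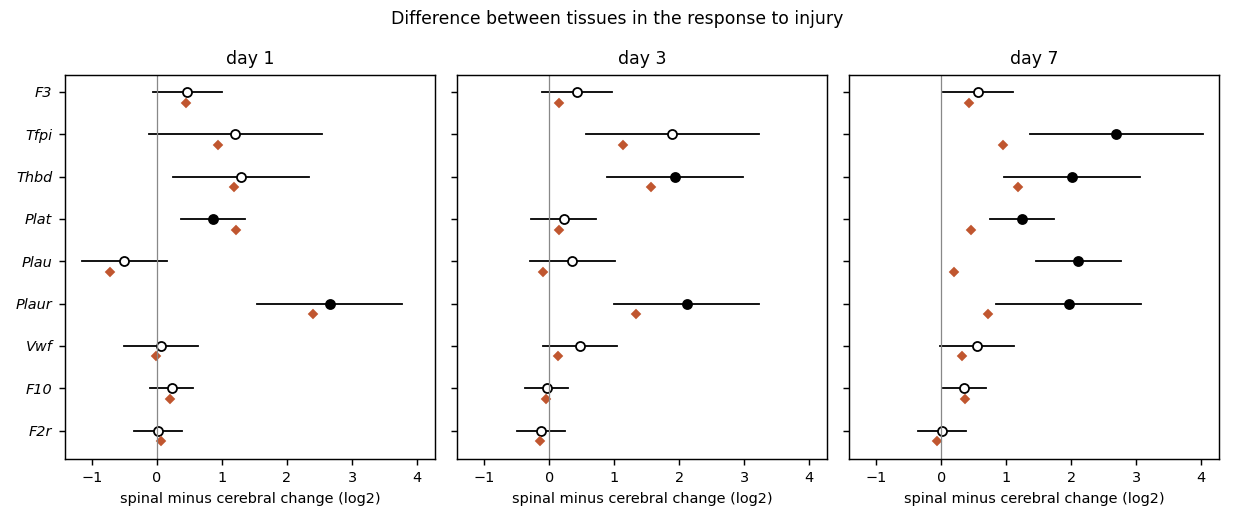
Spinal change minus cerebral change (log2) of the 9 genes at each time, with 95% intervals (circles, filled where adjusted p is under 0.05). Diamonds give the same difference after quantile normalisation. At day 7 the 5 filled circles, from 1.25 for Plat to 2.69 for Tfpi, have diamonds between 0.20 and 1.19, none of which passed.

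Of 51 other genes of the pathway, 44 were measured. In the cord 13 rose and 2 fell at day 1, where 15.8% of all genes rose and 16.1% fell. At spinal day 3, 8 rose and 0 fell (10.3% and 9.64% of all genes), and at day 7, 13 rose and 1 fell (15.2% and 16.6%). In the cerebrum 4 rose and 1 fell at day 1 (8.91% and 8.22%), 5 rose and 0 fell at day 3 (3.49% and 2.85%), and 3 rose and 0 fell at day 7 (4.5% and 2.09%). The median change of the 44 was 0.19, 0.00 and 0.06 in the cord and 0.00, 0.02 and 0.01 in the cerebrum.

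Among 15 measured clotting factors and their activating enzymes 3, 2 and 5 rose in the cord at days 1, 3 and 7 and 0, 0 and 1 in the cerebrum. For this list and those below, 15.8%, 10.3% and 15.2% of all genes rose in the cord. In the cerebrum 8.91%, 3.49% and 4.5% of all genes rose. F7, the factor that tissue factor binds, rose by 0.48 and 0.73 at spinal days 1 and 3 and by 2.40 ± 0.17 at day 7 (adjusted p = 0.0297, 0.00787 and 1.5e-12), and its cerebral changes of -0.06, 0.06 and -0.07 did not pass. Its difference between tissues at day 7 was 2.47 ± 0.24 (adjusted p = 1.13e-08). F13a1, the transglutaminase subunit that crosslinks fibrin and is found in macrophages and platelets, rose by 1.63 ± 0.23 at spinal day 3 (adjusted p = 6.04e-06) and by 2.65 ± 0.23 at day 7 (adjusted p = 7.95e-11). F8, the cofactor that the product of Vwf carries, fell by 0.60 on the log2 scale at spinal day 1 (adjusted p = 0.00167). Prothrombin, F2, was 0.36 ± 0.13 higher at spinal day 1 (adjusted p = 0.0315) and F5 0.58 ± 0.17 (adjusted p = 0.00965).

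Of 11 measured genes listed as anticoagulant, 3, 2 and 3 rose in the cord and 2, 3 and 2 in the cerebrum. Pros1, which encodes protein S, the cofactor of activated protein C, rose in all 6 comparisons, by 1.33, 1.53 and 1.15 in the cerebrum and 1.94, 2.30 and 2.01 in the cord (SE 0.17, largest adjusted p = 7.64e-05). Thbs1, the matrix protein thrombospondin 1, rose by 2.92, 3.94 and 4.49 in the cord (SE 0.36, largest adjusted p = 3.44e-07) and by 1.86 ± 0.36 at cerebral day 3 (adjusted p = 0.0013). These rises are in the counts of this list, although thrombospondin 1 is not itself an anticoagulant. Procr, the endothelial protein C receptor that works beside thrombomodulin, passed in no comparison with control, and its largest change was 0.39 at spinal day 3 (adjusted p = 0.181).

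Of 10 measured fibrinolysis genes, 5, 3 and 4 rose in the cord and 1, 1 and 0 in the cerebrum. Lrp1, the endocytic receptor that clears both plasminogen activators, rose by 0.98, 1.01 and 2.37 in the cord (SE 0.15) and by 1.10 and 1.09 at cerebral days 1 and 3. At day 7 its difference between the tissues was 2.01 ± 0.22 (adjusted p = 6.29e-08). Plg, the gene of plasminogen itself, passed at no time, with -0.42 at spinal day 7 (adjusted p = 0.104). Anxa2, a cell-surface binder of Plat protein and plasminogen, rose by 1.69 ± 0.62, 3.56 ± 0.62 and 3.56 ± 0.62 in the cord, and its cerebral changes of 1.75, 3.07 and 2.92 did not pass (adjusted p = 0.0501, 0.243 and 0.403, with bounds of 1.86 and 1.98 at days 3 and 7). Its cerebral groups did not overlap, with controls from -1.95 to -1.60 and the lowest injured array at -0.20, while the SD of the spinal controls was 2.42 against 0.14 for the cerebral ones. The tissues were not shown to differ in this change, with differences of -0.07, 0.48 and 0.64 (smallest adjusted p = 0.653).

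F2rl2 and F2rl3 are the 2 other thrombin-cleaved receptors measured. F2rl2 fell by 0.76 on the log2 scale at cerebral day 1 (adjusted p = 0.0468) and by 1.77 at spinal day 7 (adjusted p = 7.34e-06; -1.17 in the values as deposited), and F2rl3 changed by at most 0.17 in size and passed at no time. F2r itself passed at none of these times. Among 6 partners of von Willebrand factor 2, 1 and 1 rose in the cord and 1, 1 and 0 in the cerebrum. Selp, which encodes P-selectin, stored with von Willebrand factor in endothelial granules, rose by 4.75 ± 0.69 and 4.93 ± 0.69 at spinal days 1 and 3 (adjusted p = 4.43e-06 and 2.82e-06) and by 2.34 ± 0.69 at day 7 (adjusted p = 0.0292). In the cerebrum it rose by 2.02 ± 0.69 and 2.43 ± 0.69 at days 1 and 3 (adjusted p = 0.0402 and 0.0304).

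Leaving out 1 array ended several of these calls. It did so for F2rl2 at cerebral day 1, for Selp at cerebral days 1 and 3 and spinal day 7, for F2, F5, F7 and Anxa2 at spinal day 1, for F7 and Anxa2 at spinal day 3 and for Anxa2 at spinal day 7. Without cerebral day 1 array 1 Selp was 1.65 (adjusted p = 0.144) and F2rl2 was -0.65 (adjusted p = 0.141), and without spinal control 1 Anxa2 at spinal day 1 was 0.95 (adjusted p = 0.226). Without spinal day 1 array 2, F5 was 0.39 (adjusted p = 0.0767), and F2 was 0.31 (adjusted p = 0.103).

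**Figure D4:**
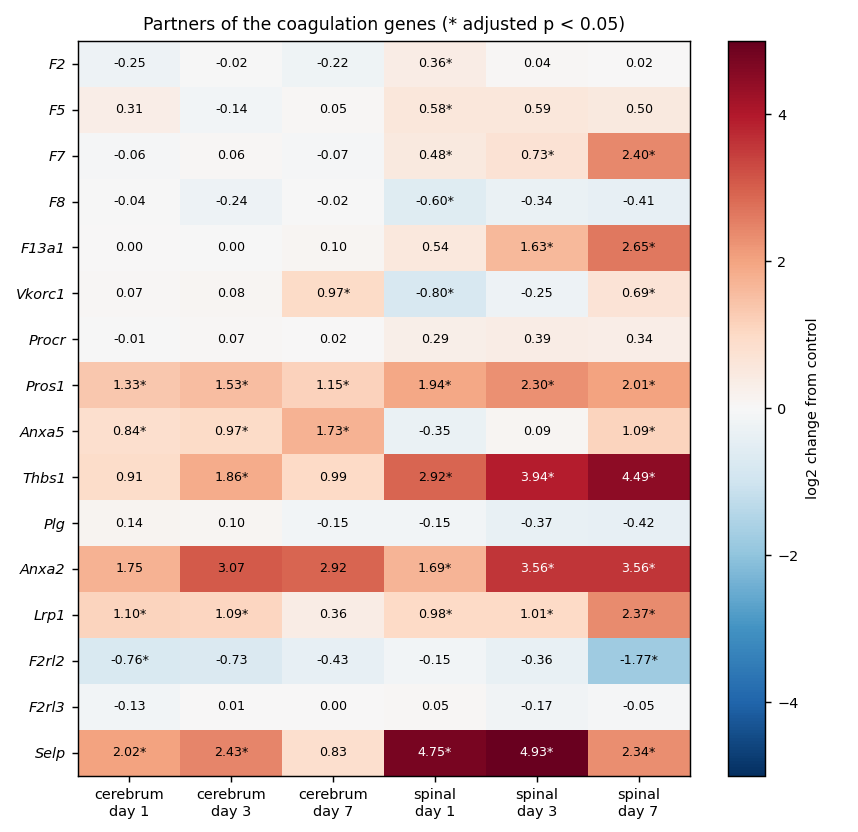
Log2 change from control of 16 partner genes of the pathway in the 6 comparisons, with an asterisk where adjusted p is under 0.05. Pros1 is marked in every column, Thbs1 and Selp hold the highest values of the cord, up to 4.93, and F7 and F13a1 are marked in the cord and not in the cerebrum.

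For each of the 7 genes that passed in at least 2 comparisons with control, the 3 named genes with the most similar values over the 32 arrays were found, by the root mean square difference after centring each gene. For Plau these were Cd200r1 (0.32), Rgs1 (0.36) and Uap1l1 (0.36), against a spread of Plau itself of 1.12. For Plaur they were Ccl6 (0.41), Myc (0.41) and Itga5 (0.44), against 1.38. For Thbd they were Lox (0.40), Tmem45a (0.43) and Msln (0.44), against 0.95, and for Tfpi Shc1 (0.52), Ifitm2 (0.53) and Aebp1 (0.56), against 1.49. For Plat they were Capn2 (0.32), Litaf (0.32) and Ybx3 (0.34), against 0.87. F3 and Vwf, whose own spread was 0.44 and 0.57, were nearest to Hax1 (0.26) and Tubb5 (0.25).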

How the data were processed

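RNA of 32 tissue samples was hybridised to 1-colour arrays. Per the labels' protocols, tissue was snap frozen, RNA was taken with TRIzol, and 10 ng was labelled with biotin. The authors deposited log2 values per probe (-5.58 to 8.04), by a summarisation not given in the sources used here. These values are centred per probe. The 16 control and day 1 arrays have a median of 0 in 100% of probes. To judge from the values alone, day 3 and day 7 were each centred apart together with the 8 controls. A match with the controls was found in 86.9% of 5646 probes tested for day 3 and 86.4% of 5147 for day 7. With day 1 arrays in place of the controls it was 69.3% and 70.3%. Day 3 matched day 7 arrays in 68.7%, and day 7 matched day 3 arrays in 69.8%. The offset of each probe was rebuilt on the assumption of centring with the controls, as the middle of its possible range. A comparison across separately centred arrays was tested against a bound, the half-width of that range plus an allowance of 0.162 (day 3) or 0.178 (day 7).

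Of 22206 probes, 19572 carry 1 symbol, giving 19505 genes, with probes of a gene averaged. Groups were read from the labels, and arrays are numbered within a group as deposited. All arrays entered 1 fit of 8 group means (24 residual degrees of freedom) with limma 3.58.1 in R 4.3.3, with p-values adjusted over all genes by Benjamini-Hochberg in each of 12 comparisons. Tables and figures used Python 3.11.15, pandas 2.3.3 and matplotlib 3.10.9. When tested on simulated data centred in the same way, over 19505 genes, the procedure recovered 95% of changes of 1 and 44% of changes of 0.5 for spinal day 1, and 87% and 15% for spinal day 7. The simulation gave each gene 1 SD over all groups, centred every probe exactly by the assumed model and put changes in the cord only. Its rates therefore do not cover the cerebral comparisons, groups of unlike spread or probes that are centred otherwise. Precision is limited by the number of arrays.

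The 9 genes, the lists, the motifs and the alternatives were chosen with earlier results of these data known. Other pathway genes were named where they were among the 3 largest rises or falls that passed without overlap in a comparison with control, or where they are direct partners of the 9. Alternatives were the values without the offset or with it exact, quantile or 75th percentile scaling, robust and trended variance, array weights, only the groups compared, subsets of the controls and each array left out.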

Additional observations from a re-analysis of the deposited data

Results flagged for a closer look

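Among the 72 sets of 4 arrays (9 genes in 8 groups), 5 held an array far from the other 3, where chance gives about 1 set in 20. Cerebral day 3 array 2 stood above the other 3 in this way for 3 genes, with F3 at 1.07, Tfpi at 0.0281 and Thbd at 0.17. Tfpi was lowest on spinal day 7 array 1, at 2.18, and Thbd was highest on spinal control 2, at 0.48.

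The response to injury differed between the cord and the cerebrum by the test of the difference itself for 9 gene and time pairs. Over all genes 4.7%, 4.08% and 13% differed upwards at days 1, 3 and 7, and 6.58%, 5.19% and 14.6% downwards. At day 1 the difference was 0.86 for Plat and 2.65 for Plaur. At day 3 it was 1.94 for Thbd and 2.12 for Plaur. At day 7 it was 2.69 for Tfpi, 2.02 for Thbd, 1.25 for Plat, 2.11 for Plau and 1.96 for Plaur. None of these day 7 differences passed under quantile normalisation.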

How the results depend on the processing

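Counts of the 9 genes called are given with the reported count first. At cerebral day 1 (1) quantile normalisation and array weights gave 2 and a fit of the groups alone 4. At cerebral day 3 (1) the values as deposited, the exact offset, quantile normalisation and the groups alone gave 2, cerebral controls 1 and 2 only or 3 and 4 only gave 0, and leaving out 1 array gave 0 to 1. At cerebral day 7 (1) the values as deposited, quantile normalisation and the groups alone gave 2. The difference between tissues at day 1 (2) gave 1 with cerebral controls 1 and 2 only and 1 to 4 on leaving out 1 array. At day 3 (2) it gave 0 with cerebral controls 1 and 2 only, and at day 7 (5) it gave 0 under quantile normalisation. For cerebral day 7 against day 1 (0) the exact offset gave 2, and quantile normalisation, array weights and the groups alone gave 1. For spinal day 7 against day 1 (2) the groups alone gave 1 and leaving out 1 array 1 to 4. The counts at spinal days 1, 3 and 7 stayed at 5 to 7, 5 to 7 and 5 to 7. No change of the 9 genes that had passed turned its direction.

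Under quantile normalisation, spinal day 7 changes of Vkorc1 and Anxa5 turned to -0.28 and -0.10, that of Pros1 in the difference between tissues at day 7 to -0.041, and those of Pros1 and Thbs1 for spinal day 7 against day 1 to -0.86 and -0.27. In the values as deposited Vkorc1 at spinal day 7 was -0.18.

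Over all genes, calls moved from 1235 to 3888 (cerebral day 3), 561 to 2962 (cerebral day 7 against day 1), 1284 to 4340 (cerebral day 7), 3888 to 7470 (spinal day 3) and 6200 to 9754 (spinal day 7) with the exact offset, from 3341 to 5096, 6200 to 3464 and 5382 to 3232 (cerebral day 1, spinal day 7 and the day 7 difference) with quantile normalisation, and from 1235 to 637, 2200 to 1056 and 1808 to 873 (cerebral day 3 and the day 1 and day 3 differences) with cerebral controls 1 and 2 only. The share of higher calls went from 68.3% to 57.6% at cerebral day 7 as deposited, and from 52% to 63.7% at cerebral day 1 and 41.7% to 26.8% in the day 1 difference with 75th percentile scaling. The causes were not tested. No paired analysis was possible because the labels give no replicate numbers. Centred values hide how far a probe stood above background, so a gene near 0 may be one the array could not measure.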
